A study of Mus musculus with 15 samples.

Results

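The water channels of mouse colon and the guanylin system that drives its fluid secretion were followed through 10 genes: Aqp1, Aqp3, Aqp4, Aqp7, Aqp8, Aqp11, Guca2a, Guca2b, Gucy2c and Cftr. They were picked by gene symbol, with earlier results of these data known, so their counts beside those of all genes are a description. All 10 of 10 were measured, by 19 of the 45101 probe sets, among 18193 genes with a probe set of their own. Where a gene had several probe sets, that with the highest mean level is described first and the others stand beside it.

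The arrays were Affymetrix Mouse430_2 arrays of colon RNA from male mice aged 3 months on a mixed C57BL/6 and 129 background, kept as littermate cohorts, with 3 arrays in each of 5 groups. Wild type colon was APC+/+/Olfm4+/+, APC mutant colon was APC+/-/OLFM4(+/+) and Olfm4 mutant colon was APC+/+/Olfm4-/-. Double mutant mice, APC+/-/Olfm4-/-, gave both tumours and the normal tissue next to them, here called adjacent. The samples were colon tissue and not isolated epithelium, and which APC allele was used is not given in the sources used here. The design text speaks of 3 mice per category, but the adjacent and tumour titles carry only 2 animal numbers, and 1 of these animals gave 2 of the 3 arrays in each of these groups. The animal number in the title of Olfm4 mutant replicate 3 is made of digits of the other Olfm4 mutant numbers, so that it was a separate animal rests on the title alone. The p-values rest on the spread among these arrays, some of which is within 1 animal, and their number limits the precision. Levels are deposited log2 values, so a difference of 1 is a doubling, and differences carry the standard error (SE) of a model fitted to all 15 arrays with limma. A gene is called at an adjusted p of 0.05 over all 18193 genes.

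Aquaporins are membrane pores that let water, and in some members glycerol, follow osmotic gradients. In the colon they serve the absorption of water by surface cells. Guanylin (Guca2a) and uroguanylin (Guca2b) are small peptides released into the gut lumen that bind the receptor guanylate cyclase C (Gucy2c) on epithelial cells. The receptor makes cGMP, which through a cGMP-dependent kinase opens the chloride channel Cftr and restrains the sodium-proton exchanger Slc9a3, so that salt and water enter the lumen. Guanylin is known as one of the transcripts often lost in human colorectal tumours.

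The start regions of 3 members are shown: Guca2a and Guca2b because they are neighbouring protein-coding genes for the ligands, and Aqp8 because it differed most between tumour and adjacent tissue on the main probe sets. They are RefSeq promoters of the assembly GRCm38.p6, each 250 bases before to 50 bases after the annotated start, on the strand of the gene. Aqp8 lies at chr7:123462044-123462343 on the plus strand, Guca2a at chr4:119637482-119637781 on the plus strand and Guca2b at chr4:119658896-119659195 on the minus strand. Capitals mark matches, on either strand, to the motifs searched.
Aqp8: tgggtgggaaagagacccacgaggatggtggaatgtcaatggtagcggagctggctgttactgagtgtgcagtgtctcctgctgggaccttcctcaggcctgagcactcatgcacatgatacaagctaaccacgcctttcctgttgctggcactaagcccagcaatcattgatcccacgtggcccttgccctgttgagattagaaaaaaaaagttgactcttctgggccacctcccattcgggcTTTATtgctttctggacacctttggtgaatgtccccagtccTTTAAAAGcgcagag
Guca2a: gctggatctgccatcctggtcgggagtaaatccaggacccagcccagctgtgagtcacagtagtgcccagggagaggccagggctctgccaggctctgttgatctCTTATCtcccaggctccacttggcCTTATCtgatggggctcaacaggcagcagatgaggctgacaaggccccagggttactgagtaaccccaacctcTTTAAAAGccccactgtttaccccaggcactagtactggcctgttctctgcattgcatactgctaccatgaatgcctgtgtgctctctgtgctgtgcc
Guca2b: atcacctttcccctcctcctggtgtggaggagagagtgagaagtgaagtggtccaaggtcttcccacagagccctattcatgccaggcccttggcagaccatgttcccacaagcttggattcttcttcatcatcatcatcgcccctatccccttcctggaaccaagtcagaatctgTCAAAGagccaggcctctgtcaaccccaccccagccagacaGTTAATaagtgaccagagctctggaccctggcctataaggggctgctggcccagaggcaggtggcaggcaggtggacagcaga
Guca2a held the GATA factor motif GATAAG in 2 places on the reverse strand, 145 to 140 and 121 to 116 bases before the start, and 7.44% of 32851 promoters of the same length held it. On the strand printed they appear as the reverse complement. Guca2b held GTTAAT, part of the HNF1 motif, 33 to 28 bases before the start (7.10% of promoters) and the TCF and LEF motif TCAAAG 74 to 69 bases before it (16.003%). Aqp8 held TTTAT, bound by CDX factors, 6 to 2 bases before the start (40.0%). The run TTTAAAAG, searched for after these sequences had been read, stood 48 to 41 bases before the start of Guca2a and began 35 bases after that of Aqp8 (2.10%). CAAAGTCC, an HNF4 motif, was in none of the members' windows and in 1.42% of promoters. GC content was 52.0% for Aqp8, 56.3% for Guca2a and 56.0% for Guca2b against a median of 52.7%, so these windows are not unusual in base composition. Of the 10 genes 8 matched an entry, and Aqp4 and Gucy2c did not. A match is a run of letters and says nothing of binding in these samples.

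Some facts of the whole series bear on every value. The only Olfm4 probe set read from 2.97 to 3.32 over all 15 arrays, near the low end of the scale, and the 4 Apc probe sets moved apart, so neither checks the genotype labels. Bacterial RNAs added to the samples showed a 3-prime minus 5-prime difference that averaged 1.99 ± 0.083 (SD, n = 3) in wild type colon, 2.16 ± 0.20 with the APC mutation, 2.64 ± 0.52 without Olfm4, 4.10 ± 0.30 next to the tumours and 5.01 ± 0.26 within them. The arrays were numbered group by group in this order. Array number and group therefore cannot be told apart in any comparison. Nor can the spike-in difference and group in Olfm4 mutant, adjacent or tumour against wild type. The same holds for tumour against adjacent tissue and for adjacent tissue against either single mutant. Spike-in values ran from 1.89 to 2.06 in wild type arrays, which overlapped the range from 1.93 to 2.32 in APC mutant arrays. They ran from 2.29 to 3.25 in Olfm4 mutant arrays. They ran from 3.91 to 4.45 in adjacent and from 4.73 to 5.22 in tumour arrays. Cell type markers moved too. From adjacent tissue to tumour 6 of 6 smooth muscle, 6 of 7 absorptive and 5 of 6 goblet markers fell. So did 3 of 4 glial, 2 of 6 general epithelial and 1 of 5 adipocyte markers. Of the erythroid markers 1 of 3 rose, while 0 of 7 endothelial markers were called. Over all genes 13.8% were called lower and 14.3% higher. The mean level of the absorptive list lay from 11.57 to 11.70 in the adjacent and from 9.27 to 9.99 in the tumour arrays. That of the smooth muscle list lay from 11.97 to 12.48 and from 8.22 to 10.02. That of the general epithelial list lay from 13.45 to 13.60 and from 12.91 to 13.16. The tumour minus adjacent differences of its 6 genes ran from -2.74 to 0.36, with a median of only -0.10. In such tissue fewer cells of a type and less RNA per cell cannot be told apart. The part of these shifts in the results below was not tested.

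**Figure D1:**
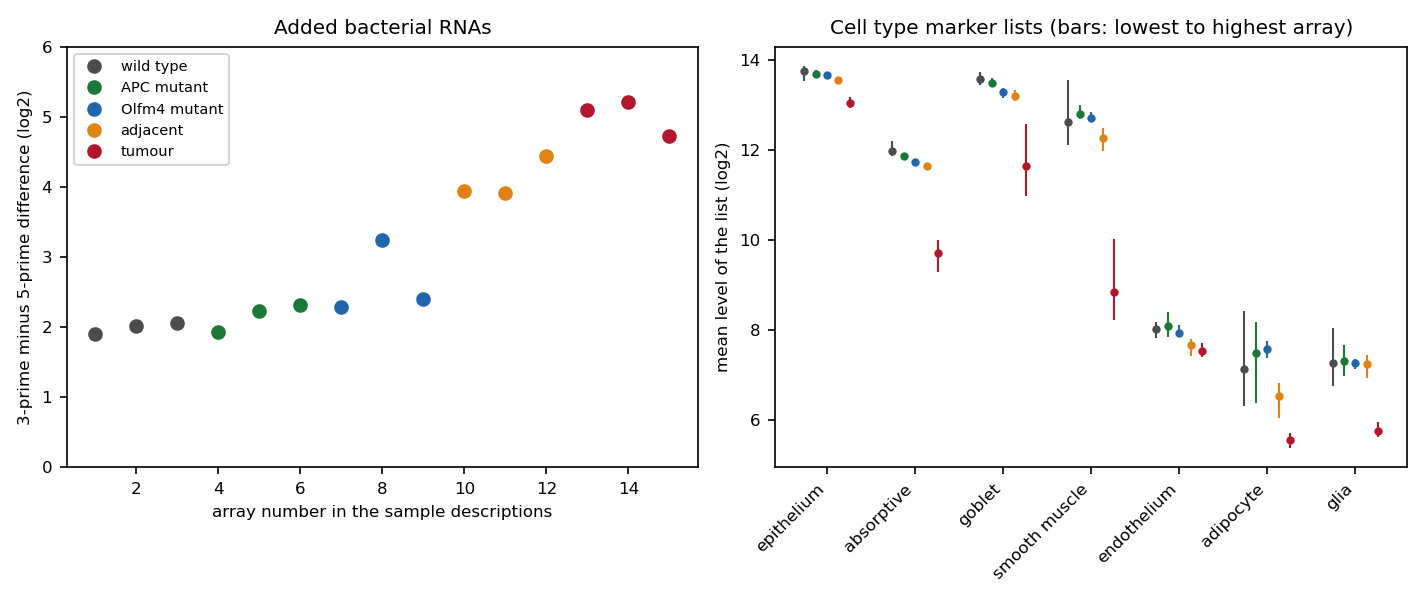
Left, the 3-prime minus 5-prime difference of the added bacterial RNAs (log2) of each array against the array number in the sample descriptions, with the spike-in difference lowest in wild type and highest in tumour arrays. Right, the mean level (log2) of each marker list by group in the same colours, where points are group means and bars run from the lowest to the highest array. Every list shown has its lowest group mean in the tumours. The erythroid list, not shown, has its highest there (5.64, beside 4.88 in wild type).

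In tumours compared with adjacent tissue of the same mice 6 of the 10 genes fell and 0 rose, against a background of 13.8% of all genes called lower and 28.1% called in either direction. The water channel Aqp8 was 13.04-fold lower, the ligand Guca2a 4.74-fold, its receptor Gucy2c 3.31-fold, the chloride channel Cftr 3.03-fold, and the water channels Aqp4 and Aqp11 2.56-fold and 2.05-fold. The median difference of the 10 genes was -1.20 on the log2 scale, beside 0.00 over all genes. In tumours compared with wild type colon 8 of 10 fell and 0 rose (background 20.1% lower and 49.4% in either direction), with a median of -2.03 beside 0.11. Adjacent tissue already stood below wild type colon for 4 of the 10, Aqp8, Guca2a, Guca2b and Aqp1 (background 10.1% lower and 27.8% in either direction), with a median of -0.60 beside 0.13. Over this step 1 of 7 absorptive, 1 of 6 goblet and 1 of 6 general epithelial markers fell, and the mean level of the absorptive list lay from 11.85 to 12.19 in wild type arrays. The same 4 members were lower in adjacent tissue than in APC mutant colon (background 7.45% lower). Double mutant tissue was sampled only in tumours and next to them. Genotype and nearness to a tumour therefore cannot be told apart where adjacent tissue is set against wild type or single mutant colon. Comparisons against wild type share its 3 arrays, and both sets of adjacent comparisons share the adjacent arrays, so their counts are not separate evidence.

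The fall between adjacent tissue and tumour was present with the spike-in difference as a covariate for 5 of these genes, with Aqp8 at -3.57, Guca2a at -2.56, Gucy2c at -2.14, Cftr at -2.09 and Aqp4 at -1.91 (adjusted p from 0.00013 to 0.015). The spike-in ranges of adjacent and tumour arrays did not overlap, so this fit cannot fully separate the spike-in difference from the tissue. With the same covariate 0 of the 10 genes were called in tumour against wild type, adjacent against wild type, adjacent against APC mutant or Olfm4 mutant against wild type. In the first 3 of these the covariate nearly coincides with the groups and the errors widen, to an SE of 0.89 from 0.22 for Aqp8 in tumour against wild type. With the covariate all 10 genes shared an adjusted p of 0.99998 in adjacent against wild type. The share of all genes called with it is not given here, so the counts of 0 are not read as particular to these genes. The estimates moved unequally. For tumour minus wild type Aqp8 went from -5.88 to -5.45 and Guca2a from -3.54 to -4.60, while Guca2b went from -2.37 to -1.04 and Aqp1 from -2.21 to -1.09, and Gucy2c (-3.81), Aqp4 (-3.67), Cftr (-3.44) and Aqp11 (-1.80) moved over 1.5 times the other way. For adjacent minus wild type Aqp8 went from -2.18 to -1.87, Guca2a from -1.30 to -2.04, Guca2b from -1.90 to -0.97 and Aqp1 from -1.45 to -0.67. For adjacent minus APC mutant the same 4 stood at -1.43, -1.97, -0.50 and -0.61. In Olfm4 mutant against wild type, where the spike-in ranges lie closer, Aqp8 went from -0.84 to -0.74 and its SE from 0.22 to 0.29 (adjusted p = 0.32).

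**Figure D2:**
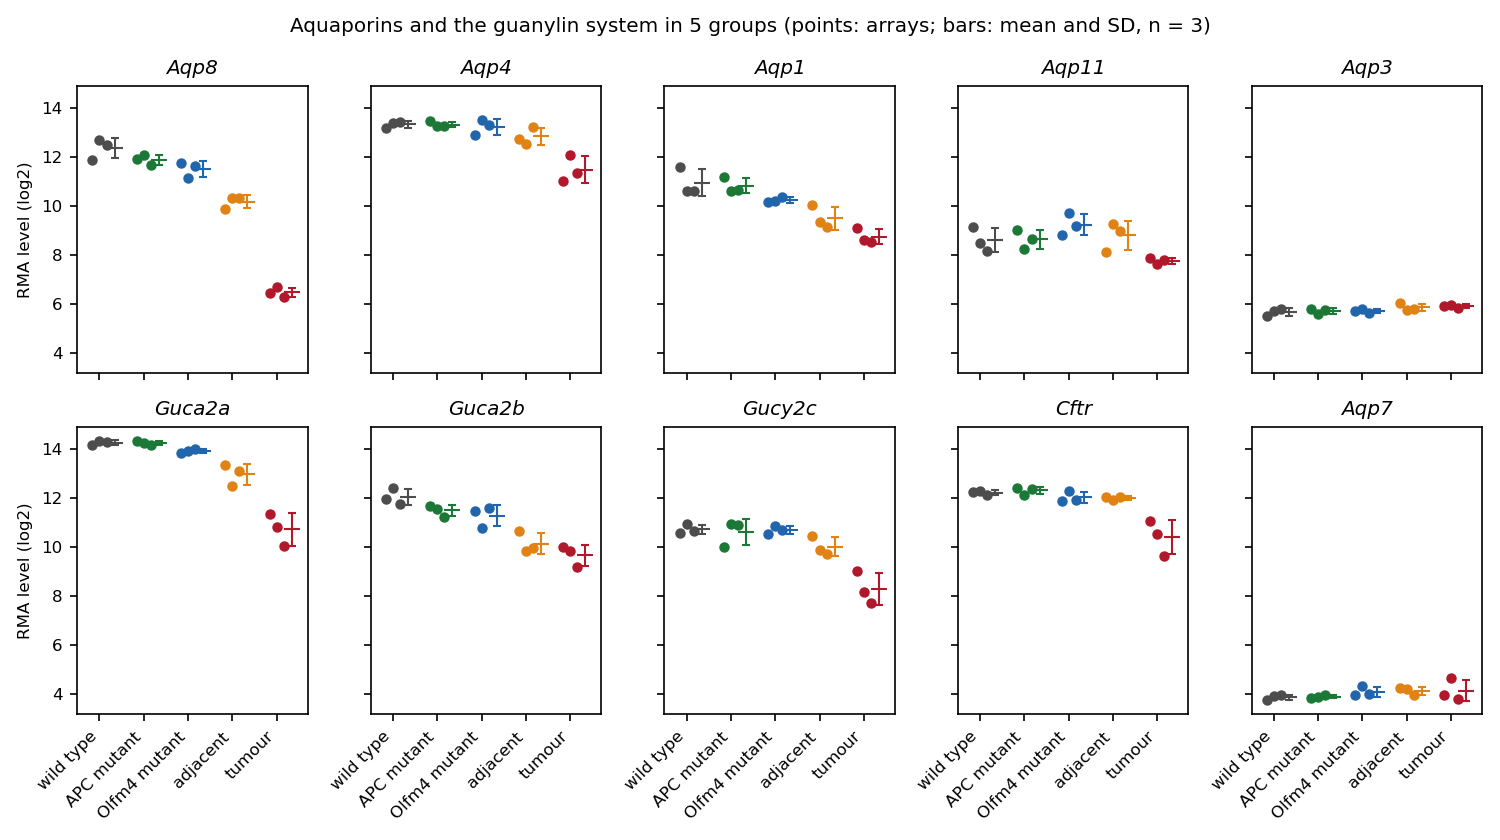
Level (log2, RMA) of each of the 10 genes in the 5 groups; points are single arrays and bars give the mean and SD of 3 arrays. Aqp8 drops from between 11.87 and 12.66 in wild type to between 6.27 and 6.66 in tumours, while Aqp3 and Aqp7 stay low in all groups.

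The pathway begins with its ligands. Guca2a, the main guanylin of the colon, read 14.16, 14.33 and 14.29 in wild type and 14.34, 14.26 and 14.18 in APC mutant colon. Its levels were 13.84, 13.93 and 13.99 in Olfm4 mutant colon, 13.33, 12.48 and 13.08 in adjacent tissue and 11.35, 10.79 and 10.02 in tumours. All tumour arrays lay below all adjacent arrays, and all adjacent arrays below those of the single mutants and wild type. Guca2a fell by 2.24 from adjacent tissue to tumour (SE 0.27, adjusted p = 5.3e-05), fell by 1.30 from wild type to adjacent tissue (adjusted p = 0.0042) and fell by 3.54 from wild type to tumour (adjusted p = 7.2e-07). Within the double mutant animals the tumour minus adjacent difference was -1.98 in the animal with 1 pair of arrays and -2.38 in the animal with 2. The Olfm4 mutant arrays were all below the wild type arrays, but the difference of -0.34 was not called.

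Uroguanylin, encoded by Guca2b, is the relative of guanylin better known from the small intestine. The wild type arrays read 11.95, 12.41 and 11.75 for Guca2b, and the APC mutant arrays 11.68, 11.56 and 11.23. Olfm4 mutant colon gave 11.47, 10.77 and 11.57, adjacent tissue 10.63, 9.84 and 9.94 and tumours 10.002, 9.82 and 9.18. The adjacent arrays lay below all arrays of the first 3 groups, whereas adjacent and tumour arrays overlapped. Guca2b fell by 1.90 from wild type to adjacent tissue (SE 0.29, adjusted p = 0.00076) and fell by 2.37 from wild type to tumour (adjusted p = 2.2e-05), and the further difference of -0.47 between tumour and adjacent tissue was not called (adjusted p = 0.26). Its within-animal differences were -0.63 and -0.39. Of its neighbours in the order wild type, APC mutant, Olfm4 mutant, adjacent and tumour, no pair differed beyond the threshold, the closest being Olfm4 mutant and adjacent (1.13, adjusted p = 0.087).

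The receptor gene Gucy2c encodes guanylate cyclase C, which turns binding of either peptide into cGMP. Wild type colon gave 10.58, 10.92 and 10.66, APC mutant colon 9.98, 10.95 and 10.90, and Olfm4 mutant colon 10.51, 10.84 and 10.70. Adjacent tissue read 10.45, 9.86 and 9.72, and tumours 9.01, 8.15 and 7.70. The tumours were below every other array, and 1 APC mutant array lay among the adjacent ones. From adjacent tissue to tumour Gucy2c fell by 1.73 (SE 0.32, adjusted p = 0.0014), with -1.45 and -1.87 in the individual animals, and its tumour minus wild type difference was -2.44 (adjusted p = 4.8e-05). The adjacent level was 0.71 below wild type without overlap of the arrays, and this difference was not called (adjusted p = 0.12), though it was with array weights (-0.84, adjusted p = 0.045).

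Cftr, the cAMP- and cGMP-regulated chloride channel at the end of the pathway, was called on its main probe set in no comparison that left out the tumours. Its arrays read 12.24, 12.30 and 12.12 in wild type, 12.41, 12.13 and 12.38 in APC mutant and 11.87, 12.27 and 11.92 in Olfm4 mutant colon. Adjacent tissue gave 12.05, 11.91 and 12.04 and tumours 11.05, 10.51 and 9.65. The 3 tumour arrays were the lowest of the 15 and spread the widest (SD 0.71, against 0.080 in adjacent tissue). Cftr fell by 1.60 from adjacent tissue to tumour (SE 0.26, adjusted p = 0.0005), with -1.0008 and -1.90 in the individual animals, and fell by 1.82 from wild type to tumour (adjusted p = 8.0e-05). The adjacent minus wild type difference was -0.22 (adjusted p = 0.57). A dimmer probe set of Cftr, 1427767_a_at, took another course, with means of 4.23 and 4.22 in wild type and APC mutant colon, 3.75 in colon without Olfm4, and 3.37 and 3.39 in adjacent tissue and tumours. On it adjacent tissue was lower than wild type, at -0.86 (adjusted p = 0.0026 over all probe sets), and lower than APC mutant colon, at -0.85 (adjusted p = 0.0046). The mean of both probe sets was also lower in adjacent tissue than in wild type, at -0.54 (adjusted p = 0.014), and than in APC mutant colon, at -0.58 (adjusted p = 0.015). The dimmer probe set lies near the low end of the scale, and no detection call comes with the values.

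Aqp8, a water channel of the surface cells of the colon, had the largest tumour minus adjacent difference of the aquaporins, on every probe set measured. Wild type arrays gave 11.87, 12.66 and 12.48 for Aqp8, APC mutant arrays 11.92, 12.04 and 11.66 and Olfm4 mutant arrays 11.76, 11.14 and 11.61. Adjacent tissue read 9.87, 10.30 and 10.32 and tumours 6.43, 6.66 and 6.27. Tumour, adjacent and the other arrays formed separate ranges, and the spread within a group was at most 0.41 (SD). Aqp8 fell by 3.71 from adjacent tissue to tumour (SE 0.22, adjusted p = 2.9e-07), with -3.44 and -3.84 in the individual animals, fell by 2.18 from wild type to adjacent tissue (adjusted p = 0.00025), and fell by 5.88 from wild type to tumour (adjusted p = 6.7e-09, 59.0-fold). Against APC mutant colon the adjacent level was lower by 1.71 (adjusted p = 0.0012).

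Aqp8 was also the 1 gene of the 10 called in Olfm4 mutant against wild type colon, where 2.5% of all genes were called lower and 7.92% in either direction. It fell by 0.84 (SE 0.22, adjusted p = 0.039), and its Olfm4 mutant arrays were all below the wild type arrays. The call was lost without wild type replicate 2 (adjusted p = 0.14) or 3 (0.094), without Olfm4 mutant replicate 2 (0.16) or 3 (0.083), and when limma was fitted to these groups alone (0.15). Guca2b at -0.77 (adjusted p = 0.12) and Aqp1 at -0.70 (adjusted p = 0.15) were not called, and 3 of the 10 genes had an unadjusted p under 0.05, beside 24.6% of all genes. Between adjacent tissue and Olfm4 mutant colon 0 of the 10 genes were called by limma (4 at an unadjusted p under 0.05, beside 16.3% of all genes), as were 0.044% of all genes. Aqp8 was 1.34 lower there with an adjusted p of 0.0505, just outside the threshold, and Guca2b 1.13 lower. Without Olfm4 mutant replicate 2, the array of that group with the highest spike-in difference (3.25), Aqp8 at -1.52 (adjusted p = 0.0051) and Guca2b at -1.38 (adjusted p = 0.024) were called. In APC mutant against wild type colon limma called 0 of the 10 genes and 0% of all genes, and 0 of the 10 had an unadjusted p under 0.05, beside 7.28% of all genes; the differences ran from -0.54 for Guca2b to 0.09 for Cftr. The interaction, which asks whether the step from APC mutant to adjacent tissue differs from that from wild type to Olfm4 mutant colon, had 0 calls among the 10 genes and 0% of all genes, with 2 of the 10 at an unadjusted p under 0.05, beside 10.4% of all genes. Its largest values were -0.95 for Guca2a (adjusted p = 0.45) and -0.88 for Aqp8 (adjusted p = 0.42). In the interaction, too, the double mutant genotype and nearness to a tumour cannot be told apart.

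**Figure D3:**
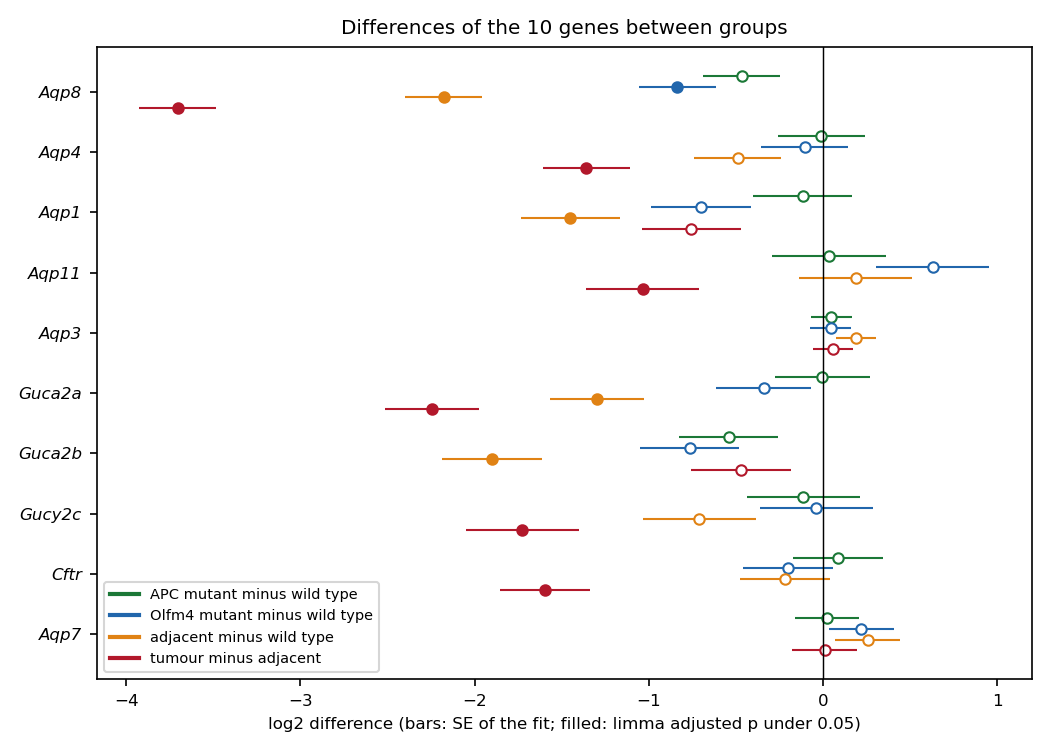
Log2 differences of the 10 genes for APC mutant, Olfm4 mutant and adjacent tissue against wild type and for tumour against adjacent tissue; bars are SE of the fit and filled points passed an adjusted p of 0.05 in limma. Aqp8 is filled in 3 of the 4 comparisons, Guca2a in 2, Guca2b and Aqp1 in adjacent against wild type, and Gucy2c, Cftr, Aqp4 and Aqp11 in tumour against adjacent.

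Aqp4, a water channel of the basolateral membrane of colon surface cells, was called on its main probe set in no comparison that left out the tumours. It read 13.16, 13.37 and 13.41 in wild type, 13.44, 13.24 and 13.24 in APC mutant and 12.86, 13.50 and 13.27 in Olfm4 mutant colon. Adjacent tissue gave 12.74, 12.53 and 13.21 and tumours 11.004, 12.06 and 11.34. Tumours lay below all other arrays, and adjacent arrays overlapped those of wild type. Aqp4 fell by 1.36 from adjacent tissue to tumour (SE 0.25, adjusted p = 0.0012), with -1.73 and -1.17 in the individual animals, and the adjacent minus wild type difference of -0.49 was not called (adjusted p = 0.17).

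The 3 probe sets of Aqp4 did not run in parallel. The group means on 1425382_a_at were 10.23 for wild type, 9.81 for APC mutant and 8.74 for Olfm4 mutant colon, 7.36 for adjacent tissue and 5.91 for tumours. On 1447745_at they were 8.92, 8.40, 8.22, 7.35 and 5.76 in the same order. The adjacent minus wild type difference was -2.87 on the first of these (adjusted p = 0.0025 over all probe sets) and -1.57 on the second (adjusted p = 0.070), and tumour minus adjacent was -1.44 (adjusted p = 0.092) and -1.59 (adjusted p = 0.081). The size of the adjacent tissue difference for Aqp4 therefore depended on the probe set. The spike-in difference rose over the groups in the same order as the means of all 3 probe sets descended. The main probe sets of Aqp1, Aqp8, Guca2a and Guca2b descended in that order too. Where the probe sets lie along the transcript was not established here. All 3 probe sets were lower in tumours than in wild type colon, with differences of -1.85 (main, adjusted p = 5.5e-05 over genes), -4.32 and -3.16 (adjusted p = 4.3e-05 and 0.00077 over probe sets).

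**Figure D4:**
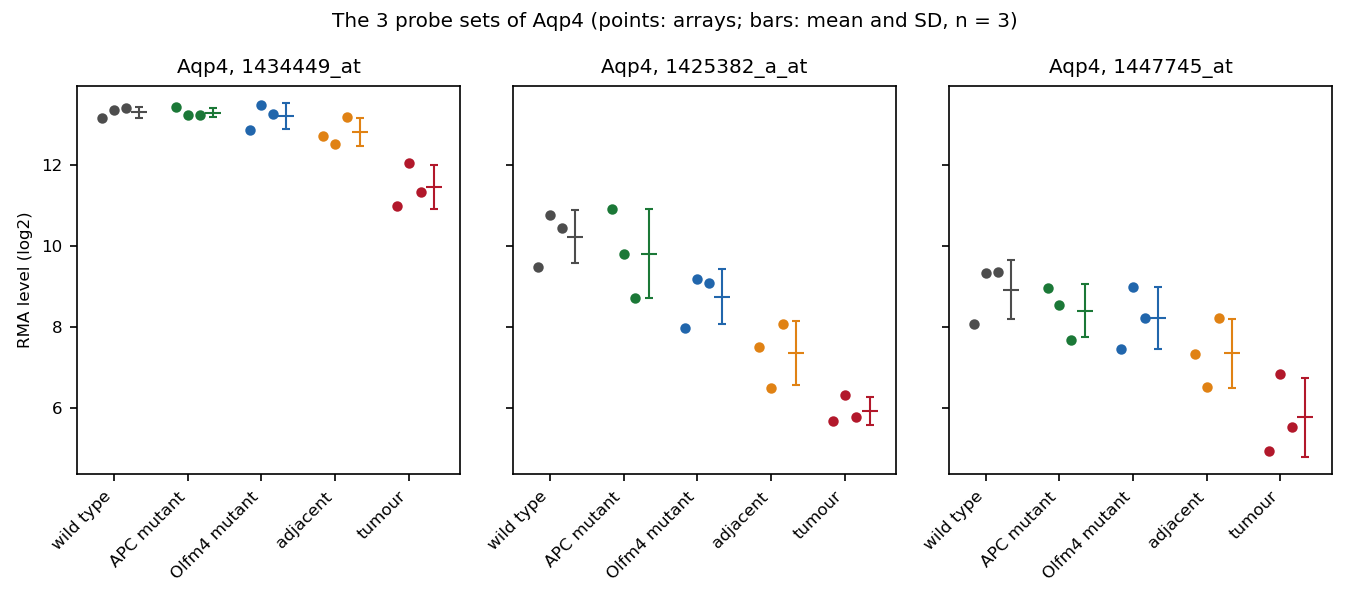
Level (log2, RMA) on the 3 probe sets of Aqp4 in the 5 groups; points are arrays and bars the mean and SD of 3. The means on the left probe set descend only from 13.32 to 12.83 up to adjacent tissue, and the means on the other 2 descend from 10.23 to 5.91 and from 8.92 to 5.76 over the groups.

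Aqp1, a water channel best known from endothelial cells and red cells, read 11.57, 10.61 and 10.61 in wild type, 11.16, 10.62 and 10.66 in APC mutant and 10.14, 10.18 and 10.36 in Olfm4 mutant colon. It gave 10.01, 9.32 and 9.11 in adjacent tissue and 9.07, 8.60 and 8.50 in tumours. Each of the last 3 groups lay wholly below the one before it, while wild type and APC mutant arrays overlapped. Aqp1 fell by 1.45 from wild type to adjacent tissue (SE 0.29, adjusted p = 0.0030) and fell by 2.21 from wild type to tumour (adjusted p = 3.8e-05). The tumour minus adjacent difference of -0.76 was not called (adjusted p = 0.067), but in the paired fit with animal as a replicate block it was (adjusted p = 0.0068), as without adjacent replicate 3 (0.045) or tumour replicate 1 (0.048). With the arrays of each animal averaged, an alternative chosen after seeing the data, it was not called (0.16). Some endothelial markers also changed between wild type and adjacent tissue. In adjacent against wild type 3 of 7, Pecam1, Kdr and Emcn, fell and 1, Cdh5, rose. Over all genes 10.1% were called lower and 17.7% higher. The mean level of the list lay from 7.82 to 8.17 in wild type, from 7.42 to 7.79 in adjacent and from 7.39 to 7.71 in tumour arrays. Of the erythroid markers 1 of 3 measured rose over this step, and their mean level lay from 4.72 to 5.07 in wild type and from 5.13 to 5.55 in adjacent arrays. The part of these markers in the Aqp1 result was not tested.

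Aqp11, an unorthodox aquaporin of the endoplasmic reticulum, read 9.14, 8.48 and 8.16 in wild type, 9.01, 8.24 and 8.64 in APC mutant and 8.82, 9.69 and 9.17 in Olfm4 mutant colon. In adjacent tissue the levels were 8.12, 9.26 and 8.97, and in tumours 7.86, 7.60 and 7.77. The tumours were the lowest group without overlap, and the other groups overlapped each other. Aqp11 fell by 1.04 from adjacent tissue to tumour (SE 0.33, adjusted p = 0.030) and fell by 0.85 from wild type to tumour (adjusted p = 0.046). The first was lost without adjacent replicate 2 (0.13) or 3 (0.093) or tumour replicate 1 (0.053), 2 (0.090) or 3 (0.070), with the spike-in covariate (0.12), in a paired fit with replicate number as the replicate block (0.055) and with arrays of the same animal averaged (0.20). The second was lost without wild type replicate 1 (0.18) or 2 (0.069) or tumour replicate 1 (0.069), 2 (0.12) or 3 (0.088). It was also lost with animal as a random block (0.059), with arrays of the same animal averaged (0.10), with the mean of all probe sets (0.075), with array weights (0.082) and with the spike-in covariate (0.86). Tumour minus adjacent was -0.26 in 1 animal and -1.43 in the other. Its other probe sets, with levels from 3.43 to 5.38 over all arrays, were dim.

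Aqp3 and Aqp7, neighbouring genes for channels that also pass glycerol, were dim throughout. Aqp3 read from 5.47 to 5.78 in wild type and from 5.83 to 5.95 in tumours on its main probe set, and Aqp7, best known from fat cells, from 3.76 to 3.95 and from 3.804 to 4.63. All 6 probe sets of these genes lay below the median of every array, and no detection call says whether they stood above background. Tumour minus adjacent was 0.06 for Aqp3 (adjusted p = 0.78) and 0.01 for Aqp7 (adjusted p = 0.98), and tumour minus wild type 0.25 (adjusted p = 0.10) and 0.27 (adjusted p = 0.26). Another Aqp3 probe set, 1450460_at, was 0.61 higher in tumours than in wild type (adjusted p = 0.0052 over all probe sets).

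Other aquaporins were measured as a list of 6. In tumours against adjacent tissue 2 of 6 rose and 0 fell, beside 14.3% of all genes called higher and 13.8% lower. Aqp5, a channel of secretory glands, rose by 1.27 (SE 0.26, adjusted p = 0.0028), from a mean of 6.52 to 7.80, and Aqp9, a glycerol-passing channel known from liver and neutrophils, by 1.42 (SE 0.39, adjusted p = 0.016), from 4.95 to 6.36. Against wild type the same genes were 1.28 and 1.36 higher in tumours, and Aqp2, Aqp6, Aqp12 and Mip were not called in either comparison.

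The rest of the cGMP pathway did not move one way. Of its 16 genes, all measured, 5 rose and 6 fell from adjacent tissue to tumour, with a median of -0.34 beside 0.00 over all genes, and 5 rose and 4 fell from wild type to tumour. Over all genes 14.3% were called higher and 13.8% lower in the first of these, and 29.3% and 20.1% in the second, so that the counts against wild type are near the background. Prkg2, the cGMP-dependent kinase of enterocytes that acts on Cftr, rose by 4.15 (SE 0.83, adjusted p = 0.0022), from a mean of 6.92 in adjacent tissue to 11.07 in tumours beside 8.43 in wild type. Abcc4, an exporter of cyclic nucleotides, rose by 2.05 from adjacent tissue and by 3.58 from wild type, and the phosphodiesterase Pde10a rose by 1.35 and 1.97. Abcc5, another cyclic nucleotide exporter, rose by 2.45 from wild type to tumour and stood at 0.46 against adjacent tissue without a call. The soluble guanylate cyclase subunit Gucy1a1, which senses nitric oxide, fell by 2.62 from adjacent tissue to tumour, and Prkg1, the kinase of smooth muscle, fell by 1.73, beside the smooth muscle markers that fell in 6 of 6 cases. Pdzd3, a scaffold that binds the receptor Gucy2c, was 1.74 higher in adjacent tissue than in wild type (adjusted p = 0.0060) and fell by 2.29 from adjacent tissue to tumour. Slc9a3, the sodium-proton exchanger that guanylin signalling restrains, had means of 12.82, 12.74 and 12.78 in wild type, APC mutant and Olfm4 mutant colon, 10.97 in adjacent tissue and 12.49 in tumours. It fell by 1.84 from wild type to adjacent tissue (SE 0.48, adjusted p = 0.013) and rose by 1.52 from adjacent tissue to tumour (adjusted p = 0.030), and tumour minus wild type was -0.32 (adjusted p = 0.61). None of the 10 main genes had its lowest group mean in adjacent tissue.

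Of the chloride and bicarbonate secretion list 11 of 12 genes were measured. From adjacent tissue to tumour 7 fell and 0 rose, with a median of -0.60, and from wild type to tumour 6 fell and 2 rose, with a median of -0.32 beside 0.11 over all genes. The shares of all genes called lower and higher were 13.8% and 14.3% in the first and 20.1% and 29.3% in the second. The chloride-bicarbonate exchanger Slc26a3 fell by 3.83 (SE 0.32, adjusted p = 3.0e-06), and the bestrophin channel Best2, found in goblet cells, fell by 2.89 from adjacent tissue to tumour. The bicarbonate cotransporter Slc4a4 fell by 2.28 and the chloride channel Clcn2 fell by 1.92. The adenylate cyclase Adcy6 fell by 1.34 from wild type to tumour and stood at -0.85 against adjacent tissue without a call. Slc26a3 read 13.53 on average in wild type and 13.24 in adjacent tissue, a difference of -0.30 that was not called. The basolateral loader Slc12a2, which brings chloride into the cell, was 0.23 higher in tumours than in adjacent tissue without a call (adjusted p = 0.15) and rose by 0.58 from wild type to tumour.

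**Figure D5:**
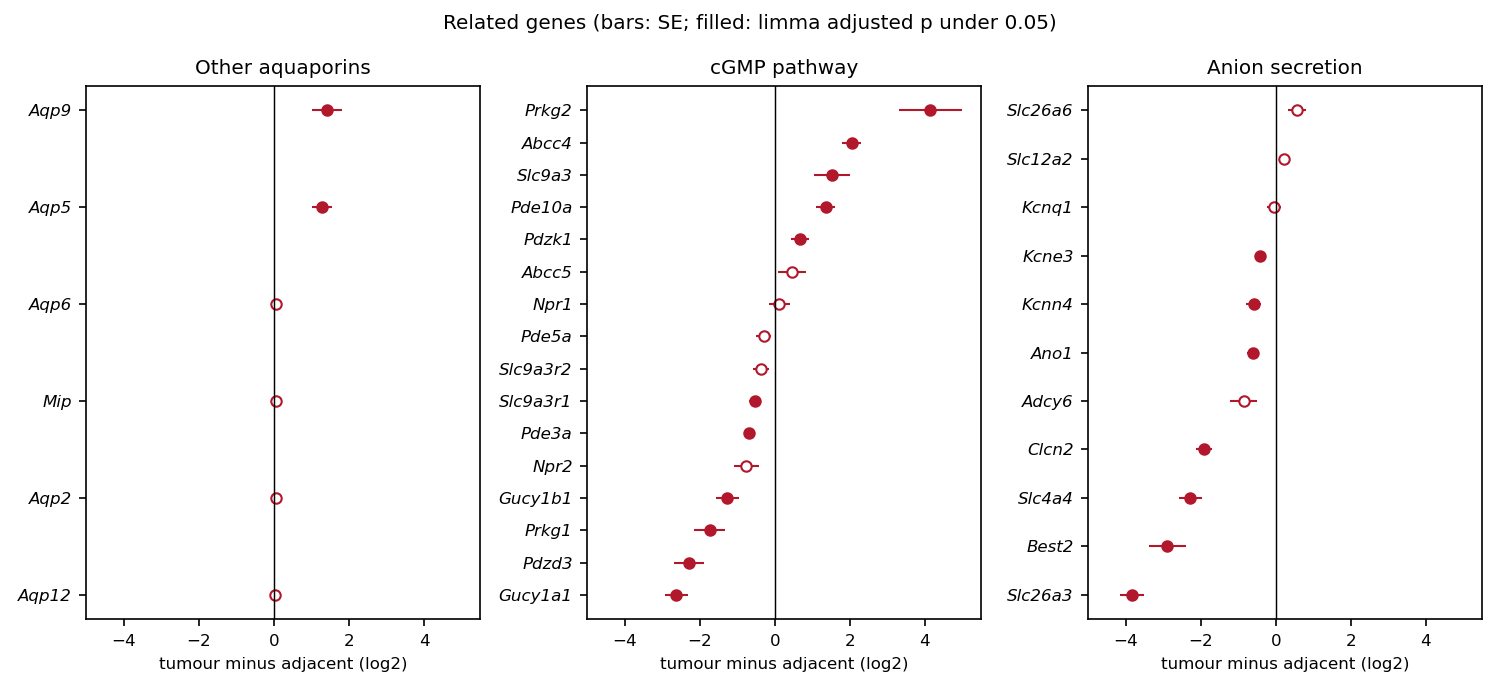
Tumour minus adjacent differences (log2) of the other aquaporins, the rest of the cGMP pathway and the anion secretion genes, with SE as bars and filled points for an adjusted p under 0.05 in limma. The called aquaporins are higher, the called secretion genes lower, and the cGMP pathway holds genes on both sides, from -2.62 for Gucy1a1 to 4.15 for Prkg2.

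The genes whose levels ran most like those of the members over the 15 arrays were found by Pearson's r, over arrays that share the group structure and the spike-in difference. For Aqp8 these were Slc9a2 (0.992), Mcu (0.992) and Ppp1r14d (0.989), and for Aqp4 Fabp2 (0.960), Akr1c12 (0.953) and Otc (0.948). Guca2a ran most like Ethe1 (0.982), Rep15 (0.982) and Car1 (0.981), and Gucy2c like Ceacam1 (0.963), Car1 (0.962) and Ahcyl2 (0.958). The carbonic anhydrase gene Car1 thus stood in the first 3 for both the ligand and its receptor. Cftr was followed by L1cam (0.980), Scin (0.976) and Muc3 (0.976), and Guca2b by Kctd10 (0.969), Fkbp2 (0.960) and Sbds (0.957). Aqp1 was closest to Tppp3 (0.982), Hyi (0.977) and Fbln2 (0.976), and Aqp11 to Ppara (0.950), Ubac1 (0.941) and Scamp1 (0.936). For the dim genes these were AW047730 (0.933), D7Ertd443e (0.905) and Sohlh1 (0.899) beside Aqp3, and Kif6 (0.881), Bpifa3 (0.867) and Tssk6 (0.856) beside Aqp7. Among the members themselves the highest values were those of Guca2a with Aqp8 (0.969), Gucy2c (0.954) and Cftr (0.944), followed by Aqp4 with Aqp8 (0.927), Gucy2c with Cftr (0.923), Aqp8 with Gucy2c (0.916) and Aqp1 with Guca2b (0.915). The correlation of each member with the spike-in difference ran from -0.933 for Guca2b to 0.696 for Aqp3, with Aqp8 at -0.920 and Cftr at -0.732. These values describe 15 arrays that share groups and carry no test.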

How the data were processed

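Colon RNA of 15 samples was hybridised to Affymetrix arrays, and the values the authors deposited are log2 levels. The submitters' processing notes name RMA and Partek 6.5. RMA brings the probe values of all arrays to 1 distribution, which can hide a shift common to most genes. The medians of the deposited values still ran from 6.35 (tumour replicate 2) to 6.47 (APC mutant replicate 3). A genome build was not given in the sources used here, nor were detection calls. Probe sets with 1 symbol (34945, against 932 with several and 9160 with none) were kept, 1 per gene by the highest mean. Limma 3.58.1 in R 4.3.3 fitted 5 group means, with Benjamini-Hochberg adjustment over 18193 genes, after tests on simulated data. All adjusted p-values are limma's. The members, lists and tests were chosen with earlier results of these data known. Named were all members, up to 6 called genes per list with a log2 difference of at least 1, and the 3 genes most like each member, leaving out predicted symbols. Prkg1, Slc9a3 and Slc12a2, the list genes named as not called and the marker genes lie outside that rule and were picked with their values in view. Motifs were searched by exact match. Alternatives were the probe set rule, an expression filter, cyclic loess, priors, array weights, the groups fitted, blocks, the spike-in covariate and each array left out. Titles tie adjacent and tumour arrays to shared animals, so they are paired, but the main fit did not use the pairing. Fits with blocks were run only as alternatives. Deviations from the group means correlated at 0.281, -0.0155 and 0.182 for pairs 1, 2 and 3, and from -0.259 to -0.0881 between animals. The titles do not say which pieces of the animal that gave pairs 2 and 3 belong together; crossing them gave 0.124 and 0.126.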

Additional observations from a re-analysis of the deposited data

How the results depend on the processing

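No called difference of the 10 genes changed sign under any alternative run. The count of members called in tumour against adjacent tissue was 6 and stayed between 5 and 6 when single arrays were left out, at 7 with animal as a replicate block, 6 in the paired fit with replicate number as the replicate block and 5 with arrays of an animal averaged, an alternative chosen after seeing the data. In tumour against adjacent tissue the blocks changed the calls of Aqp1 and, by number, Aqp11, and no other call of the 10 genes. In tumour against wild type the random block by animal ended the call of Aqp11 (adjusted p = 0.059). Leaving out single arrays gave 7 to 8 called in tumour against wild type, 4 to 4 in adjacent against wild type and against APC mutant, 0 to 2 in adjacent against Olfm4 mutant, 0 to 1 in Olfm4 mutant against wild type and 0 to 0 in the APC mutant comparison and the interaction. The spike-in covariate left 0 called in tumour against wild type, adjacent against wild type, adjacent against APC mutant and Olfm4 mutant against wild type, with the estimates and the wider errors given beside the results. The last count was also 0 with only these groups fitted. For adjacent against Olfm4 mutant the count went from 0 to 1 with the most variable probe set, with genes above the median and with a trend and robust prior, to 5 with array weights and to 2 without Olfm4 mutant replicate 2. The main fit called 0.044% of all genes in that comparison. The shares of all genes called under the alternatives are not given here, so the changed counts may not be particular to the members. Aqp4 lost its tumour against adjacent call with the most variable probe set (-1.44, adjusted p = 0.070), and its adjacent against wild type difference was called there (-2.87, adjusted p = 0.0016). With the mean of its probe sets Aqp4 was also called lower in adjacent tissue than in wild type (-1.64, adjusted p = 0.015). Gucy2c gained a call with array weights in adjacent against wild type (-0.84) and against APC mutant (-0.88, adjusted p = 0.026), and Cftr with the mean of its probe sets in both. Aqp3 was called higher in tumours than in wild type with the mean of its probe sets (0.32, adjusted p = 0.011) and with the most variable one (0.61, adjusted p = 0.0051). Aqp11 lost its call in 8 of 18 alternatives for tumour against adjacent and in 10 of 16 for tumour against wild type. Cyclic loess moved the median of all genes in tumour against wild type from 0.11 to -0.01. Other causes were not tested. The number of arrays, and the missing detection calls for Aqp3 and Aqp7, limit what can be read.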
